A study of Mus musculus with 2 samples.

Results

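Cadherins, protocadherins and catenins are the genes described here, as they were measured in mouse testis preparations enriched for Sertoli cells. The members are the non-control probes whose gene name in the array files starts with Cdh and a digit, Pcdh, Ctnn, Dsg and a digit, Dsc and a digit, or Celsr. They are 107 probes for 71 genes, of 15208 probes and 11142 gene names in all. The 2 preparations came from 3-month-old male Swiss mice, an outbred stock. The control received no treatment, and the other received busulphan, a DNA-alkylating drug that depletes germ cells, at 25 mg/kg body weight 1 month before collection. Per the labels' protocols, testes were digested with collagenase and then with collagenase and hyaluronidase, and the cells that stayed on the last strainer were taken as Sertoli cells and lysed without culture. The protocols name no sort or gate, and the number of mice behind a preparation is not given in the sources used here. Each group was hybridised to 1 one-colour Agilent array, so replicate error could not be estimated, p-values are not given, and array, preparation and treatment cannot be told apart.

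Cadherins are membrane proteins that hold neighbouring cells together through calcium-dependent binding of their outer domains. Inside the cell their tails bind beta-catenin and p120-catenin, and alpha-catenin couples that complex to actin. Beta-catenin is also the transcriptional effector of Wnt signalling. In the seminiferous epithelium, N-cadherin and its catenins build adherens junctions between Sertoli cells and between Sertoli and germ cells, and desmosomal cadherins add spots of adhesion that are anchored to intermediate filaments. Protocadherins are related membrane proteins, many of them encoded in tandem gene clusters, and are best known from neurons. Celsr proteins are large cadherins of planar cell polarity.

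Values are processed signals, the brightness of a spot after the scanner software's correction for trends across the slide, in arbitrary units. The signal of 1 probe cannot be set against that of another probe. Ratios are log2 of busulphan over control after each array was divided by its 75th percentile, which stood at 1046 for the control and at 905 for busulphan. A difference of at least 2-fold either way was the threshold of size, and the software error given with a ratio is the scanner software's own spot error, the only error the files hold. A gene was compared where at least 1 array had its probe well above background, and was represented by its probe with the highest mean level. A probe above background on 1 array only gives a bound, written as at least so many fold.

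The labels call both preparations isolated Sertoli cells, and the marker lists show other cells in both. Among 20 Sertoli markers, 18 passed 2-fold upwards with busulphan, and their summed signal, in multiples of the array's 75th percentile, was 14.2 in the control and 169 in the busulphan library. Every one of 11 spermatid markers was lower, with sums of 562 and 42.9 and 8 control spots saturated, and 10 of 12 spermatocyte markers were lower, with sums of 279 and 42.9. Macrophage markers were higher in 8 of 11 cases, with sums of 1.44 and 9.56. The sums for spermatogonial markers were 3.13 and 3.77, for Leydig markers 1.15 and 3.31, for peritubular myoid markers 49.7 and 67.1, and for endothelial markers 9.83 and 19.8. Bright probes weigh most in such sums, as with Star (202 and 2043) for Leydig and Robo4 (1573 and 9796) for endothelial markers. The median log2 ratios of these lists were -0.09, 0.11, 0.90 and -0.21. Of 7 Leydig markers, 2 were higher and 1 lower, and of 11 endothelial markers, 3 were higher and 3 lower. No compared marker of these lists was below background on either array. The part of these cell populations in the ratios below was not tested. In such mixed RNA, fewer cells of a type and less RNA per cell cannot be told apart. Probes well above background made up 80.9% of the control array and 79.3% of the busulphan array.

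Of the 71 member genes, 61 were compared. With busulphan, 21 of them passed 2-fold upwards (34.4%) and 18 downwards (29.5%), while 22 lay within 2-fold. Among all 9441 genes compared, 31.3% passed upwards and 29.5% downwards. The members' shares thus lay close to the background of the array in this processing. The members' median log2 ratio was 0.56, against 0.07 over all genes. With normexp background correction, 13.1% of the members passed upwards and 14.8% downwards, against 24.6% and 22.7% of all genes. When the arrays were scaled to spike-in controls, 3 member genes were higher (4.9%) and 23 lower (37.7%), against 16.2% and 46.4% of all genes. The median over all genes then moved to -0.81 and that of the members to -0.32. Directions below are therefore tied to the scaling by percentile.

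The members did not move as 1 group. The catenins and the Pcdhb cluster held most of the higher genes, and the type II cadherins, Pcdha genes and desmosomal cadherins held only lower genes among those past 2-fold. Without the Pcdhb genes, 9 of 43 members were higher (20.9%) and 18 lower (41.9%), and the median was -0.36. Among all genes compared, the shares were 31.3% and 29.5%. Leaving out a group with 12 higher genes and none lower shifts these values by construction.

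**Figure D1:**
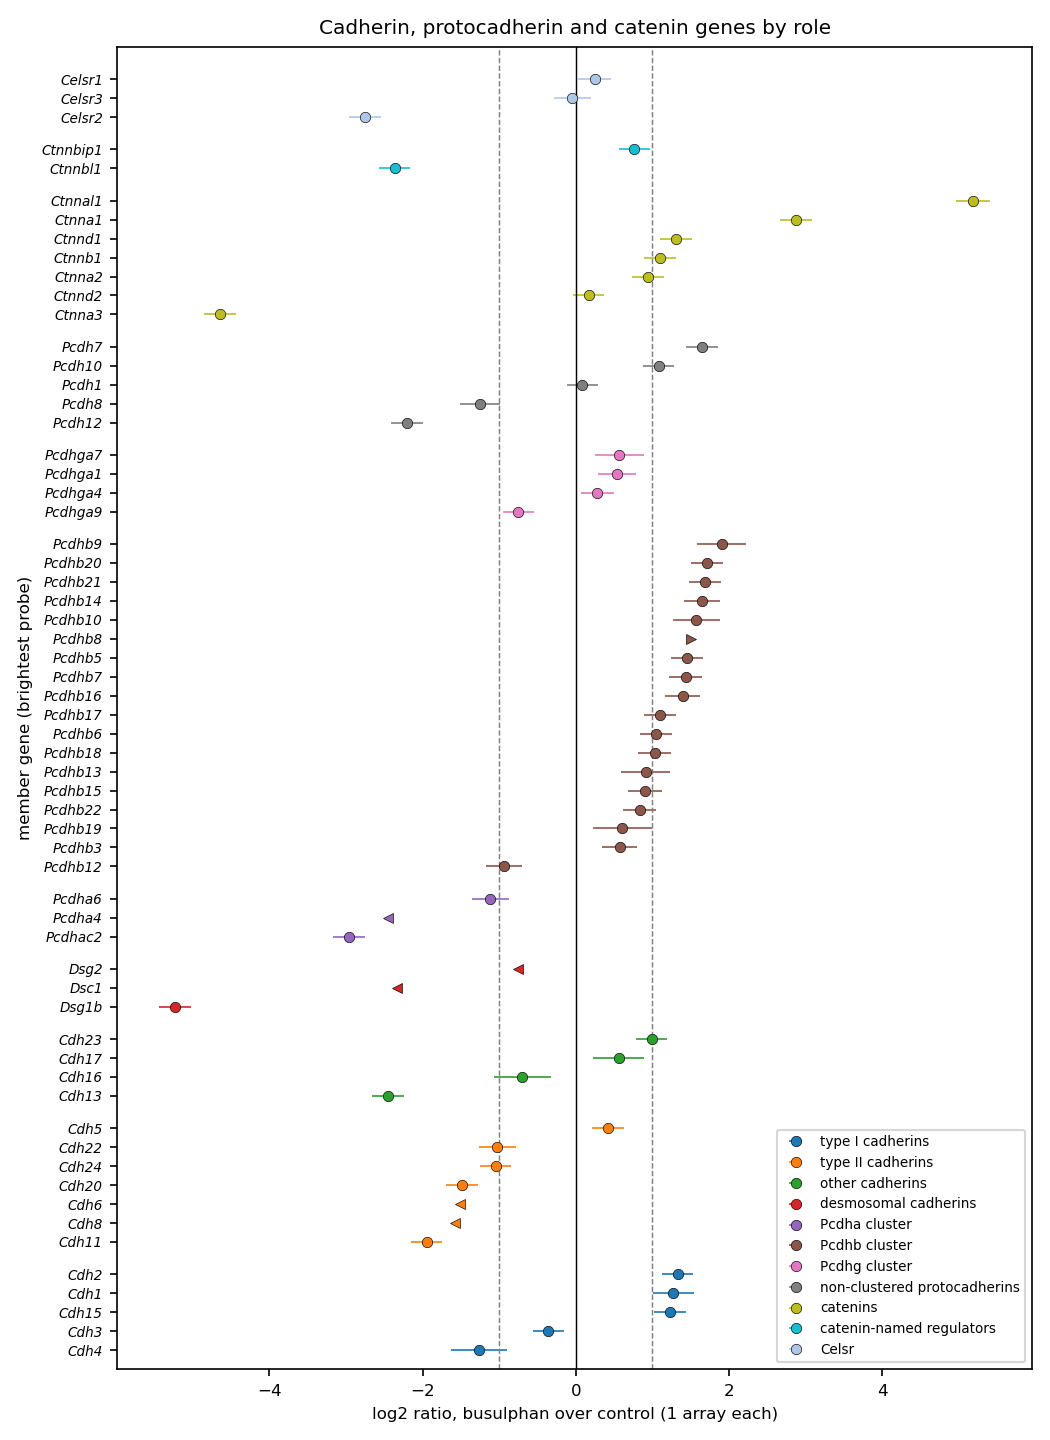
Log2 ratio of busulphan over control (x axis) for the 61 member genes compared, grouped by role, with the scanner software's error as bars, bounds as triangles and 2-fold marked by dashed lines. Ctnnal1 at 5.19 and Dsg1b at -5.23 are the ends of the range, and 17 of 18 Pcdhb genes lie above 0.

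Catenins are the cytoplasmic arm of the junction. Of 7 compared, 4 were at least 2-fold higher, 1 was lower and 2 lay within 2-fold. Their median log2 ratio was 1.099. Ctnnal1, which encodes alpha-catulin, a relative of alpha-catenin, had a signal of 26.1 in the control and 823 in the busulphan library. It was 36.4-fold higher (log2 5.19, software error 0.23), the highest ratio of all members. Ctnna3, the alpha-catenin best known from heart and testis, went the other way, with a signal of 2451 in the control and 84.7 in the busulphan library, which is 25.0-fold lower (log2 -4.65, software error 0.21). Another Ctnna3 probe was not well above background on either array.

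The probes behind the largest catenin differences, and behind the disagreement within Ctnnd1 described further on, are 60-base oligonucleotides whose mm9 coordinates cover more than their own length. They are therefore taken to bridge an intron and report spliced transcript, which was not checked against an exon annotation. The Ctnnal1 probe lies at chr4:56825409-56826051 on the minus strand, that of Ctnna3 at chr10:64408716-64422520 on the plus strand, and that of Ctnnd1 at chr2:84443888-84445378 on the minus strand. They cover 643, 13805 and 1491 bases of the genome. Their GC contents are 41.7%, 45.0% and 35.0%.
Ctnnal1: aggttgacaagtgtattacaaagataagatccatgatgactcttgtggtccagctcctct
Ctnna3: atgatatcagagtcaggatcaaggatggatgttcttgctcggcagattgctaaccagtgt
Ctnnd1: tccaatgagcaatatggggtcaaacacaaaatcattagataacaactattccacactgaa

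Beta-catenin and p120-catenin bind the cadherin tail directly. Both probes of Ctnnb1, which encodes beta-catenin, were higher. The brighter, at chr9:120868778-120868837, had signals of 3094 and 5736, which is 2.14-fold higher (log2 1.099). The other, at chr9:120869274-120869333, had signals of 2149 and 4841 and a log2 ratio of 1.38. With median scaling, no scaling or spike-in scaling the gene lay within 2-fold, at 0.93, 0.89 and 0.22.

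The 2 probes of Ctnnd1, the gene of p120-catenin, disagreed. The probe at chr2:84441713-84441772 had signals of 145 and 312 and was 2.48-fold higher (log2 1.31). The intron-bridging probe printed above, separated from it by 2115 bases upstream in the direction of transcription, had signals of 288 and 32.4 and a log2 ratio of -2.95. The gene is counted as higher by the probe with the higher mean level, and the median over both probes was -0.82. Ctnnd2, a p120 relative best known from neurons, had log2 ratios of 0.17 and -0.39 with its 2 probes.

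The alpha-catenins divided by gene. Ctnna1, the alpha-catenin of epithelia, had a signal of 3622 in the control and 22999 in the busulphan library and was 7.34-fold higher (log2 2.88, software error 0.20), with its probe on chromosome 18 at 35414129 to 35414188. Ctnna2, the neural alpha-catenin, had log2 ratios of 0.94 and 0.87 at neighbouring probes with signals of 1299 and 2164 and of 463 and 730.5. The last Ctnna2 probe, 718 kb away, was dimmer, at 14.9 and 99.0, with a ratio of 2.94. Of the genes named for a catenin without being one, Ctnnbl1, a nuclear protein of the splicing machinery, was 5.14-fold lower with signals of 12144 and 2043. Ctnnbip1, an inhibitor that keeps beta-catenin from its transcription partners, had signals of 366 and 538 and a log2 ratio of 0.76.

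**Figure D2:**
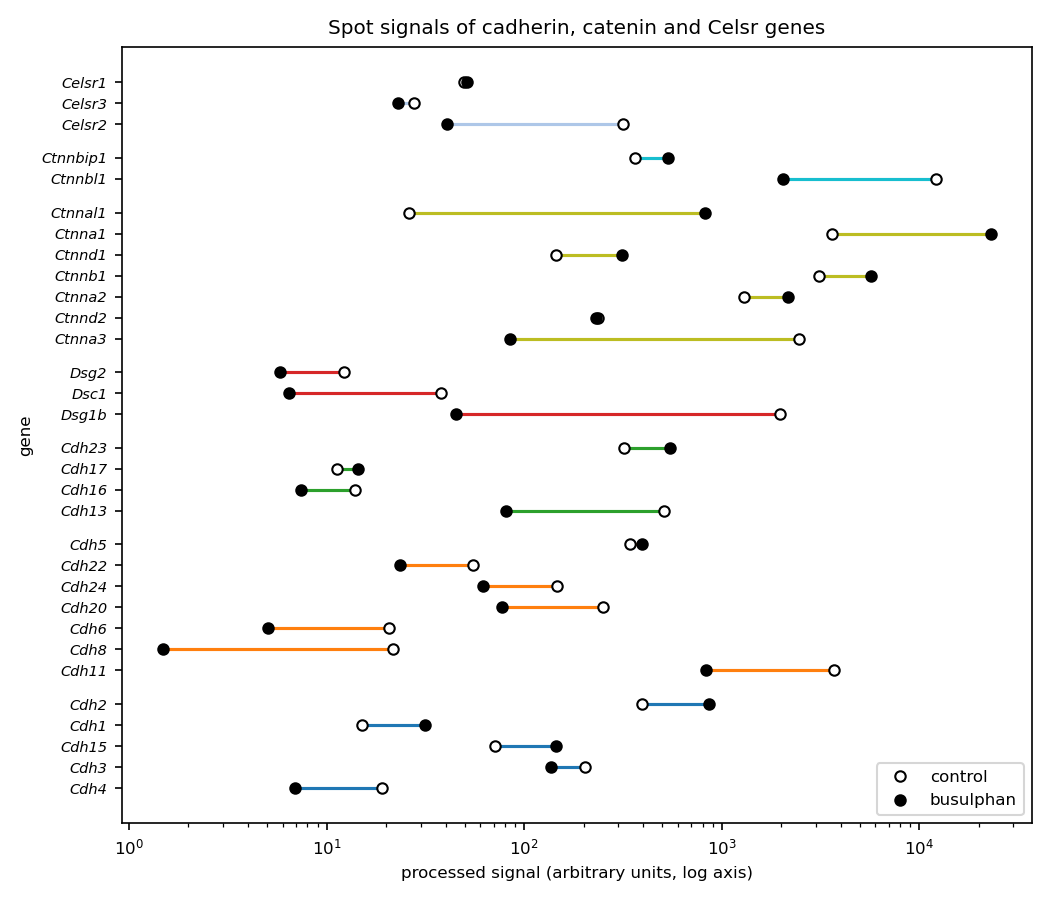
Processed signal (log axis, arbitrary units) of the control array (open circles) and the busulphan array (filled circles) for each cadherin, catenin and Celsr gene compared, by its brightest probe, with lines joining the 2 arrays. The longest lines are those of Ctnnal1 towards busulphan and Ctnna3 and Dsg1b towards control; positions of different genes cannot be compared, because each probe has its own brightness.

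Type I cadherins are the classical cadherins of adherens junctions. Of 5 compared, 3 were at least 2-fold higher and 1 lower. Cdh2, which encodes the N-cadherin of Sertoli cells and germ cells, had a signal of 397 in the control and 862 in the busulphan library and was 2.51-fold higher (log2 1.33, software error 0.20). Its other probe was not well above background in the control and gave a ratio of at least 4.11-fold. Cdh15, the M-cadherin of muscle, was 2.35-fold higher with signals of 71.0 and 144. Cdh1, the E-cadherin of epithelia, was 2.42-fold higher at 15.1 and 31.5, near background, and with normexp background correction its log2 ratio was 0.53. Cdh3, or P-cadherin, had signals of 203 and 137 and a log2 ratio of -0.36. Cdh4, or R-cadherin, was 2.40-fold lower at 19.2 and 6.90, near background, and its log2 ratio was -0.07 with normexp. Spike-in scaling left Cdh1, Cdh2 and Cdh15 above 0 but within 2-fold, at 0.39, 0.45 and 0.35, and with loess Cdh2 and Cdh15 lay at 0.94 and 0.86.

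Type II cadherins had the lowest median of the classical families, -1.49, with 6 of 7 compared at least 2-fold lower and none higher. The lower genes include Cdh11 and Cdh24, whose probes are questioned in the next paragraph. With the median over probes, 5 were lower and the median of the 7 was -1.05. Cdh5, the VE-cadherin of endothelial junctions, was the member not lower. Its probes had signals of 342 and 396 and of 94.9 and 98.9, with log2 ratios of 0.42 and 0.27, beside an endothelial list in which 3 of 11 markers were higher and 3 lower. Cdh20 was 2.80-fold lower with signals of 251 and 77.6. Cdh22 was 2.04-fold lower with signals of 55.3 and 23.5. Cdh6 and Cdh8 were above background in the control only, at 20.6 and 21.6, and were at least 2.85-fold and 2.98-fold lower. With normexp, Cdh6, Cdh8, Cdh22 and Cdh24 lay within 2-fold, and 2 of the 7 genes were lower.

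Cdh11, the cadherin-11 of mesenchymal cells, rests on a probe that its other probes did not match. The brightest, at chr8:105191906-105191965, had signals of 3721 and 835 and a log2 ratio of -1.95. The other probes lie 34.0 kb and 34.4 kb away, at 119 and 140 and at 90.7 and 93.2, with log2 ratios of 0.45 and 0.25. The median over the 3 probes was 0.25, so the sign of the gene depends on the probe. The probe named Cdh24 also needs care. It lies at chr14:55251554-55251613 on the plus strand, whereas RefSeq (GRCm38.p6) places Cdh24 on the minus strand, so the probe matches the opposite strand. It had signals of 147 and 61.8 and was 2.07-fold lower. Of 35 member probes whose gene strand was known, 34 lay on the strand of their gene.

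Among the remaining cadherins, Cdh13, the membrane-anchored T-cadherin that lacks a cytoplasmic tail, was 5.46-fold lower with signals of 513 and 81.3 (log2 -2.45, software error 0.21). Cdh23, known from the tip links of hair cells, had a brighter probe at 320 and 551 with a log2 ratio of 0.99, and a dimmer, intron-bridging one at 17.4 and 14.8 with -0.02. Cdh16 of kidney and Cdh17 of gut were near background, with log2 ratios of -0.70 and 0.56.

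Desmosomal cadherins were detected in 3 of 7 cases. Dsc2, Dsc3, Dsg3 and Dsg4 were not well above background on either array by any of their probes. All 3 probes of Dsg1b, a mouse desmoglein-1 gene, were bright in the control and dim in the busulphan library. Their control signals were 1975, 733 and 307, against 45.4, 12.4 and 4.94 in the busulphan library. The brightest was 37.6-fold lower (log2 -5.23, software error 0.21), the lowest ratio of all members, and the next gave -5.67, and the dimmest, above background in the control only, was at least 42.4-fold lower. The spermatid markers had a median log2 ratio of -5.74, and their part in this difference was not tested. The probes lie on chromosome 18 between 20563408 and 20567696. Mice carry several closely related desmoglein-1 genes, and sharing of these probes with the other copies was not tested.

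The other desmosomal genes were near background. Dsc1 was above background in the control only, at 37.8, and was at least 5.06-fold lower. Dsg2, the broadly expressed desmoglein of simple epithelia, had 2 of its 5 probes above background on 1 array each. One, at 12.2 in the control, was at least 1.69-fold lower and the other, at 12.7 in the busulphan library, at least 1.96-fold higher, so no direction can be given.

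The 3 Celsr genes differed from one another. Celsr2 was 6.72-fold lower by its brightest probe, with signals of 317 and 40.8, and its intron-bridging probe gave -2.43 with signals of 129 and 20.7. Its remaining probe, whose file accession is another one, gave -0.54 at 57.4 and 34.1. Celsr1 had signals of 49.9 and 51.3 and a log2 ratio of 0.25. Celsr3 had 27.6 and 23.1 and a ratio of -0.04.

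**Figure D3:**
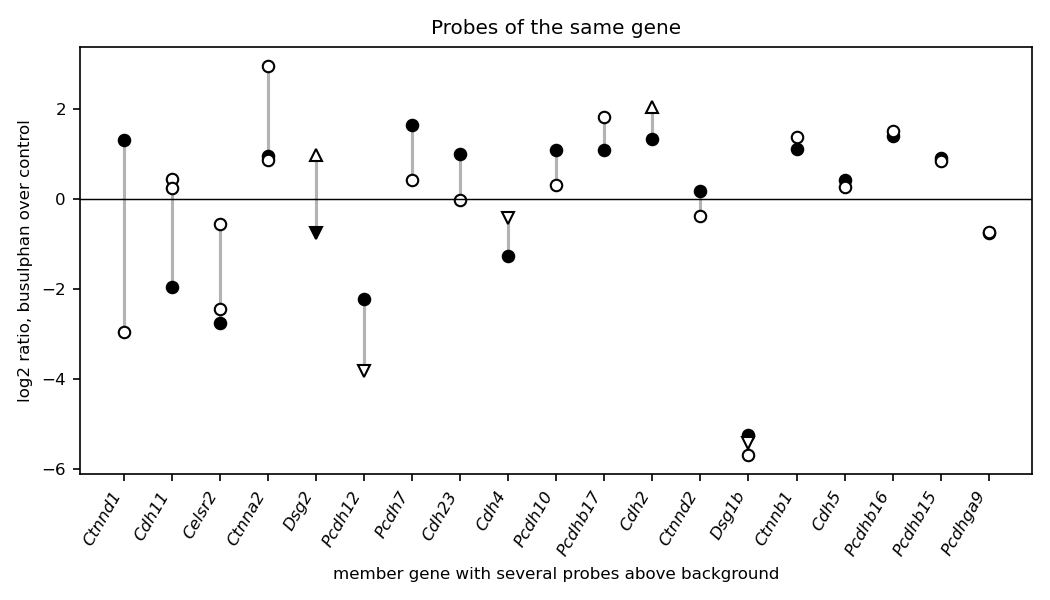
Log2 ratio of busulphan over control for every probe above background of the 19 member genes with several such probes, the brightest filled, the others open, bounds as triangles. In 8 genes the probes spread over a log2 ratio of 1 or more, and in Ctnnd1 the gap is 4.26.

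The clustered protocadherins differed from cluster to cluster. They are encoded in the Pcdha, Pcdhb and Pcdhg clusters, which follow each other on chromosome 18. The member probes there extend from 37114742 to 38001435 of mm9. Each Pcdhb gene is a single exon with its own promoter, whereas Pcdha and Pcdhg transcripts join 1 of many variable exons to exons shared by the whole cluster. By the probes that carry their names, all 3 Pcdha genes compared were lower and all 4 Pcdhg genes lay within 2-fold. Of 18 Pcdhb genes, 12 were higher (66.7%) and none lower, beside 31.3% and 29.5% among all genes compared. Which transcripts the probes named Pcdhac2 and Pcdhga9 report was not tested.

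Pcdhb genes were dim but went largely 1 way. Their control signals ranged from 1.60 to 71.4 with a median of 33.8, and their busulphan signals from 10.8 to 199 with a median of 58.2. The log2 ratio was above 0 for 17 of 18, with a median of 1.24. Pcdhb21 had signals of 71.4 and 199 and was 3.22-fold higher (log2 1.69, software error 0.21). Pcdhb20 was 3.27-fold higher, from 60.3 to 171, and Pcdhb5 2.73-fold higher, from 52.6 to 124. Both arrays stood well above background for the probes given. Another Pcdhb5 probe, 170 bases away, was not well above background on either array, at 1.61 and 1.39.

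Among the other higher Pcdhb genes, Pcdhb9 had the highest measured ratio of the cluster, 3.74-fold, at 10.8 and 35.1. Pcdhb14 was 3.13-fold higher (20.9 and 56.8) and Pcdhb10 2.98-fold higher (10.8 and 27.7). Pcdhb7 was 2.70-fold higher at 38.4 and 89.8. Pcdhb16 was 2.63-fold higher at 26.2 and 59.6, and its second probe was 2.83-fold higher at 22.9 and 56.0. Pcdhb8 was above background in the busulphan library only, at 18.4, and was at least 2.83-fold higher. Pcdhb17, Pcdhb6 and Pcdhb18 stood just past the threshold, at 2.14-fold (59.95 and 111), 2.06-fold (58.3 and 104) and 2.05-fold (35.6 and 63.0). The second Pcdhb17 probe was 3.54-fold higher at 34.9 and 107.

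Pcdhb13, Pcdhb15, Pcdhb22, Pcdhb19 and Pcdhb3 lay above 0 within 2-fold, with log2 ratios of 0.91, 0.90, 0.83, 0.61 and 0.57. The second probes of Pcdhb13 and Pcdhb19 were not well above background on either array. Pcdhb12 was the only one below 0, with signals of 44.1 and 19.9 and a ratio of -0.94. Pcdhb1 and Pcdhb11 were not well above background on either array. The size of the difference depended on processing. With normexp, which shrinks the folds of dim spots, 2 of 18 were at least 2-fold higher, and with spike-in scaling 1 was. Among all genes, 24.6% and 16.2% were at least 2-fold higher under these settings. Of the 18, 17 and 14 stayed above 0, and the all-gene share above 0 was not computed. The Pcdhb medians were 0.56 and 0.36, against 0.12 and -0.81 over all genes. Pcdhb genes are similar in sequence, and the probes of Pcdhb6 and Pcdhb15 share a run of 23 bases and those of Pcdhb5 and Pcdhb6 one of 22. Every other Pcdhb probe shares at most 14 with a probe of another Pcdhb gene, and matches outside the cluster were not searched.

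In the Pcdha cluster the control was the higher library. The probe named for Pcdhac2, a C-type member of the cluster, had a signal of 465 in the control and 51.6 in the busulphan library. It was 7.80-fold lower (log2 -2.96, software error 0.21). This probe lies 232 kb beyond the first Pcdha probe, and which transcripts of the cluster it reports was not tested. Pcdha4 was above background in the control only, at 39.5, and was at least 5.47-fold lower. Pcdha6 was 2.16-fold lower at 40.2 and 16.1. With normexp Pcdha4 and Pcdha6 lay within 2-fold, at -0.44 and -0.22.

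The probes of Pcdhga1, Pcdhga4 and Pcdhga7 had signals of 19.4 and 24.3, of 43.8 and 46.0 and of 11.1 and 14.3, with log2 ratios of 0.54, 0.28 and 0.57. The probes named Pcdhga9 include 1 that was not above background on either array and a pair that overlap by 40 bases, 102 kb downstream at the far end of the cluster. This pair had signals of 5212 and 2681 and of 4233 and 2222, with log2 ratios of -0.75 and -0.72. Pcdhga9 is counted above by the brighter of this pair, and which transcripts of the cluster the pair reports was not tested. Pcdhgb4 was not above background.

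**Figure D4:**
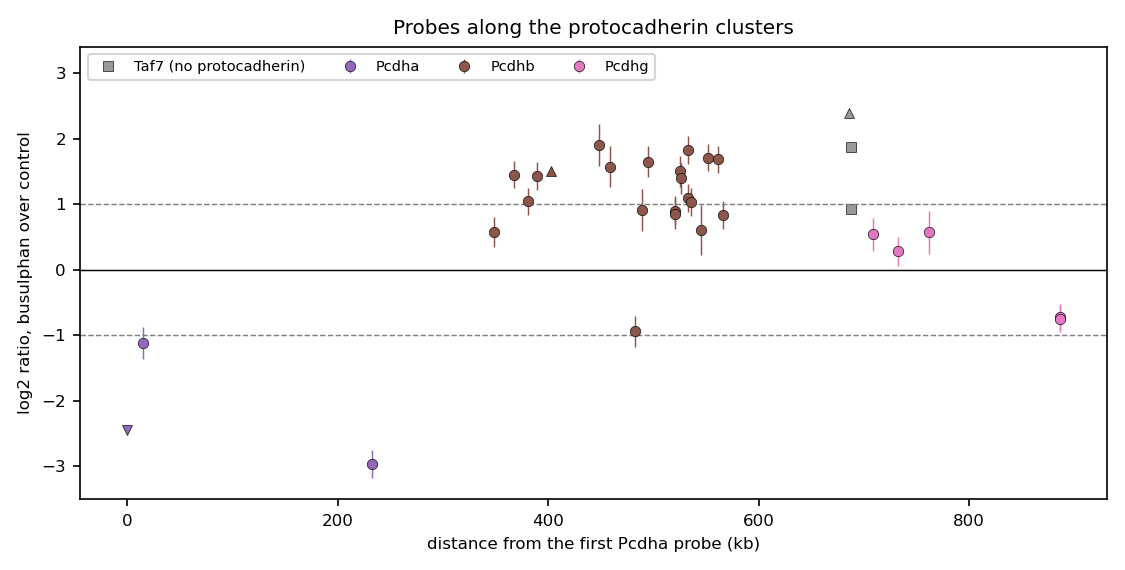
Log2 ratio of busulphan over control against distance in kb from the first Pcdha probe for each probe above background in the protocadherin clusters, with software errors as bars and bounds as triangles. Pcdha probes lie below -1, Pcdhb probes lie between 0.57 and 1.90 except Pcdhb12 at -0.94, and the overlapping probes at the far end lie near -0.7; grey squares and the grey triangle are Taf7, which is no protocadherin.

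Protocadherins outside the clusters had members in both directions. Pcdh7 was 3.13-fold higher with signals of 56.7 and 154, and its other probe, at 17.1 and 19.7, gave a log2 ratio of 0.41. Pcdh10 was 2.12-fold higher by its intron-bridging probe (182 and 333) and at 0.31 by the other (130 and 140), and it lay within 2-fold under 7 of 13 alternatives. Pcdh12, a protocadherin of endothelial cells, was 4.62-fold lower with signals of 288 and 53.9, and its other probe, above background in the control only at 102, had a log2 ratio bounded at -3.81 or lower. Pcdh8 was 2.38-fold lower at 38.1 and 13.8. Pcdh1 had signals of 244 and 224 and a log2 ratio of 0.09, and Pcdh15 and Pcdh20 were not above background. The 2 endothelial members therefore differed, with Cdh5 at 0.42 and Pcdh12 at -2.21.

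**Figure D5:**
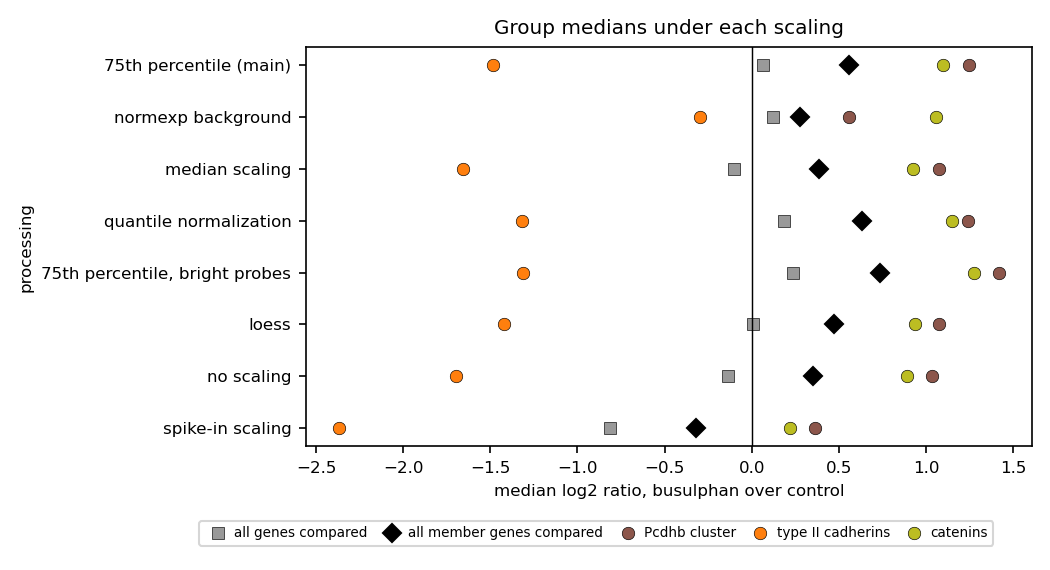
Median log2 ratio of busulphan over control (x axis) for all genes compared, all member genes, the Pcdhb cluster, type II cadherins and catenins under the main processing and 7 alternatives (y axis). Under each, type II cadherins lie below the all-gene median and Pcdhb genes and catenins above it, while spike-in scaling shifts every group downwards and normexp draws the dim groups towards 0.

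Partners of the members were taken from lists of junction and beta-catenin genes. Among all genes compared, 31.3% were at least 2-fold higher and 29.5% lower, and no list was tested against these shares. The intracellular linkers of adherens junctions and desmosomes numbered 28, of which 12 were higher by 2-fold or more (42.9%) and 9 lower (32.1%). Their median log2 ratio was 0.79. The highest were the Src-family kinase Fyn, with signals of 80.6 and 959 (13.7-fold), and the junctional LIM protein Ajuba, with 127 and 759 (6.92-fold). The lowest were the phosphatase Ptpn14, 42.2-fold lower by its brightest probe (1601 and 32.9) and at -2.47 by another, and the desmosomal plakophilin Pkp1, at least 21.2-fold lower from 153. The desmosomal plaque protein Jup, or plakoglobin, named here after its values were seen, had signals of 1023 and 94.6 and was 9.36-fold lower. The list's other desmosomal genes went both ways. Pkp3, Evpl and Pkp4 had log2 ratios of -2.41, -1.87 and -0.06, and Pkp2, Ppl and Perp had 0.72, 0.76 and 0.92.

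Of 15 genes of the beta-catenin destruction complex and its nuclear partners, 6 were higher (40%), 5 were lower (33.3%) and the median was 0.44. Apc, the scaffold of that complex, was 5.17-fold higher with signals of 269 and 1205, and its 5 probes gave log2 ratios from 0.78 to at least 2.77. The transcription partner Tcf7l2 was 4.93-fold higher, from 226 to 964, and its other probes gave 1.496 and 0.88. Sox17, which is also an endothelial marker, was 9.95-fold lower, from 2052 to 178, with another bright probe at -2.93 and dim ones at bounds of -3.01 and -0.28. Lef1 was 8.26-fold lower, from 2740 to 287. Of 10 planar polarity partners, 3 were higher (30%) and 2 lower (20%). Among them, Ptk7 (3.26-fold) and Fzd6 (2.84-fold) were higher and Dvl1 (5.27-fold) and Scrib (2.12-fold) lower.

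Of 7 proteases that cut cadherins, 3 were higher (42.9%) and 1, not named here, was lower (14.3%). Psen2, a gamma-secretase subunit, was 17.1-fold higher, from 274 to 4064. Adam10, which sheds cadherin outer domains, was 8.40-fold higher, from 17.5 to 127. Adam15, a membrane protease, had signals of 1966 and 913 and a log2 ratio of -0.90. Of 4 cadherin relatives outside the member rule, Clstn2 was 3.55-fold higher at 17.4 and 53.4 and Cdhr5 2.42-fold lower at 94.7 and 33.8. Clstn3 had a ratio of -0.92, and Cdhr1, above background in the control only at 10.6, was at least 1.46-fold lower.

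Across the 13 alternatives, other thresholds aside, 10 of the 39 members past 2-fold stayed past it in the same direction. For these 10, changing the filter on dim probes, leaving out saturated probes or using measured values for bounds left the ratio unchanged. The deposited log2 table left it nearly so. The higher ones were Ctnnal1 and Ctnna1. The lower ones were Ctnna3, Ctnnbl1, Cdh13, Cdh20, Celsr2, Dsg1b, Pcdh12 and, by the probe of that name, Pcdhac2.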

How the data were processed

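Cy3-labelled RNA of 1 control and 1 busulphan preparation went onto separate arrays. The authors deposited scanner intensity values, which the file headers credit to version 11.5.1.1 of Agilent's Feature Extraction, with detrending across the slide and surrogate values for dim spots. Flags for background and saturation are the software's, as deposited. The log2 table that the authors deposited matches those intensities on the log2 scale after subtraction of 10.03 and 9.82, and has medians of -2.94 and -2.77. Its scale, centring and direction follow from that match. No member spot was saturated. The 4 outlier probes were left out. Accessions of 13300 of 15208 probes matched RefSeq names (GRCm38.p6). Coordinates are those of the files (mm9). Exon and untranslated-region status of probes was not analysed here. Members, lists and alternatives were chosen with earlier results of these data known. Named genes are all members past 2-fold, 20 members set by name, and the 2 highest and lowest of each partner list, of which 1 is not reported here. The computation of ratios was checked on simulated data, which says nothing about replicate error. Alternatives used limma 3.58.1 for normexp (offset 50), quantile and loess normalization. Precision is limited by the 2 arrays.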

Additional observations from a re-analysis of the deposited data

How the results depend on the processing

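Of 61 members compared, 21 were higher and 18 lower, with a median log2 ratio of 0.56. With normexp the counts were 8 and 9 and the median 0.28. The counts were 13.1% and 14.8% of the members, against 24.6% and 22.7% of all genes. Spike-in scaling, over 6 control probes with 20 spots each, left 3 higher and turned the median to -0.32. Those 3 were 4.9% of the members, against 16.2% of all genes. Without a filter on dim probes the median was 0.28, over 71 genes. At a 4-fold threshold 2 were higher and 9 lower. Counts under all other alternatives stayed within 1.5 times. With the median over probes, Cdh11 turned to 0.25 and Ctnnd1 to -0.82. The cause of these moves was not tested, beyond what each setting does by construction: normexp adds an offset of 50, which weighs most on dim spots, and the median signals of the members were 52.6 and 59.6. Signal over background limits the dim members: with normexp, 2 of 12 higher Pcdhb genes and 2 of 6 lower type II cadherins stayed past 2-fold. No paired analysis was possible because each group has 1 array.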

Other observations

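The genes that share the protocadherin region were compared with the members. Taf7, a subunit of the general transcription factor TFIID whose probes lie on the opposite strand between the Pcdhb and Pcdhg genes, had log2 ratios of 0.93 and 1.87 at signals of 556 and 919 and of 218 and 689. Its dimmest probe, above background in the busulphan library only, had a log2 ratio of at least 2.39. Within 300 kb before the first Pcdha probe, Sra1 had a ratio of -0.49, Apbb3 0.02, Slc35a4 0.97, Ndufa2 -1.05, Wdr55 1.05, Hars 1.20 and Hars2 1.49. The macrophage marker Cd14 had 3.24. Within 300 kb after the last Pcdhg probe, Diaph1 had -0.86 (and -0.53 for the probe under its older name Diap1), Hdac3 0.45 and Arap3 0.63. The direction therefore differed between neighbours on both sides of the clusters. These genes were looked up after the values of the clusters were seen.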
